A study of Rattus norvegicus with 6 samples.

Results

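The aminoacyl-tRNA synthetases, and the scaffold proteins that hold some of them together, were followed in neonatal rat cardiomyocytes under a chemical and a mechanical growth stimulus. The genes were found by symbol: every probe set annotated to a gene named for the tRNA synthetase of an amino acid, plus the subunit genes Farsa, Farsb and Fars2 and the scaffold genes Aimp1, Aimp2 and Eef1e1. The rule found 36 genes, of 14217 genes with a single symbol on the array, read by 55 probe sets. Each gene was represented by its brightest probe set over the 6 arrays. The 36 genes were 13 synthetase genes whose symbol ends in 2, all of which encode mitochondrial enzymes, 20 other synthetase genes, and 3 scaffold genes. Aimp2 ends in 2 but encodes a scaffold protein of the cytosol, and it was kept with the scaffold genes.

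RNA was hybridized to 6 single-channel Affymetrix arrays, 2 for each of 3 groups, and each value is a log2 signal. The myocytes came from Wistar rats of 1 to 2 days of age and had passed a Percoll gradient to remove fibroblasts. Some fibroblast markers were still bright, such as Col3a1 with a mean of 13.24 log2 in control cells, while others were dimmer, such as Tcf21 with 9.12. Phenylephrine cells had received the α1-adrenergic agonist phenylephrine at 50 µmol/l. The protocol attached to these samples also lists endothelin-1 and angiotensin II, but their titles name phenylephrine only. Stretched cells were plated on silicone coated with collagen for 36 h, kept for 24 h without serum, and then stretched biaxially to 112% for 24 h. Control cells had received no treatment. The sources used here do not give how long phenylephrine was applied, nor the surface under the phenylephrine and control cells. Times of plating and of culture without serum are recorded here for the stretched cells only. Several preparations were pooled for the RNA, and no label calls the 2 arrays of a group independent cultures, so p-values measure only the spread between these arrays, which may be technical.

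An aminoacyl-tRNA synthetase joins an amino acid to its tRNA and so supplies the ribosome. Animal cells keep separate sets for the cytosol and for the mitochondrion, both encoded in the nucleus, and in heart muscle the mitochondrial set serves the making of respiratory chain subunits. In the cytosol a group of synthetases forms the multisynthetase complex around Aimp1, Aimp2 and Eef1e1. Gars1 and Kars1 are exceptions to the separation, since each supplies glycyl- or lysyl-tRNA synthetase to both compartments. Many cytosolic synthetase genes are known targets of ATF4, the transcription factor of the amino acid response, which binds the C/EBP-ATF response element.

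The letters of that element, TGATGNAA, were searched on both strands of RefSeq promoters (build GRCr8, 250 bases before to 50 after the start), which the table held for 34 of the 36 genes, all but Gars1 and Rars1. They were present in 7 of 21 promoters of cytosolic and scaffold genes, or 33.3%, and in 0 of 13 promoters of genes ending in 2. Among all 33469 promoters 3.98% held them, and among the 13193 promoters of genes on the array 2.22%. All 7 genes carried the form TGATGCAA, singled out after the matches were seen, which was in 0.795% of all promoters and in 0.622% of those of genes on the array. The windows below are shown because these letters occurred in some cytosolic promoters and in no mitochondrial one over this span. Each is printed in the direction of its gene with the match in capitals, as TGATGCAA or, for a match on the opposite strand, as TTGCATCA. Aars1 is shown with both of its matches, the second of which reads TTTCATCA.
Aars1: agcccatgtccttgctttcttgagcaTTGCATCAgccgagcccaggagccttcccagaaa
Aars1: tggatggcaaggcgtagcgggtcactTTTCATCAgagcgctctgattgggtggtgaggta
Cars1: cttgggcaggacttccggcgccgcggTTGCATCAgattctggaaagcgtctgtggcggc
Iars1: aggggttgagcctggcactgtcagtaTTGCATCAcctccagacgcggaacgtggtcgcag
Mars1: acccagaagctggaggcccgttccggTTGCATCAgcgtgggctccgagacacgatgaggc
Nars1: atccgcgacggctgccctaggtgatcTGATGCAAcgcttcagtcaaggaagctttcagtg
Tars1: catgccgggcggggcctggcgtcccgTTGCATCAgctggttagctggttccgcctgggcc
Yars1: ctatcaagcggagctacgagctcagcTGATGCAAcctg

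The windows lie at chr19:55908344-55908403 (Aars1, plus strand), chr19:55908465-55908524 (Aars1, plus strand), chr1:208225320-208225378 (Cars1, minus strand), chr17:15193643-15193702 (Iars1, minus strand), chr7:65023737-65023796 (Mars1, minus strand), chr18:60275763-60275822 (Nars1, minus strand), chr2:62114796-62114855 (Tars1, minus strand) and chr5:146820175-146820212 (Yars1, plus strand). The matches sat close to the start of transcription. Those of Nars1, Mars1, Iars1 and Tars1 began 14, 17, 24 and 27 bases upstream of it, and those of Cars1 and Yars1 18 and 39 bases downstream. The first match of Aars1 began 112 bases upstream, and its second, in the form TTTCATCA, 10 bases downstream. A match describes letters and not a bound site, and the lack of one says only that the letters are not in this window.

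Phenylephrine against control compares these genes with and without the chemical stimulus. Gars1, Wars1, Yars1 and Eprs1 rose and Cars2 fell, of 36 genes tested with limma and Benjamini-Hochberg adjustment at 0.05. The 4 that rose were among the 23 cytosolic and scaffold genes, and the one that fell encodes a mitochondrial enzyme. Of all 31042 probe sets 3.6% changed, 1.73% higher and 1.87% lower, so 4 higher of 23 lay above the background and 1 lower of 13 is a single gene. Of the 36 genes 26 had a change above 0, against 52.3% of all probe sets.

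Gars1, the glycyl-tRNA synthetase of both compartments (probe set 1388715_at), had 12.09 and 11.95 log2 in phenylephrine cells, 11.93 and 11.86 in stretched cells and 11.14 and 11.07 in control cells. Every stimulated array lay above both control arrays. With phenylephrine it was 1.88-fold higher (0.91 ± 0.11 log2, SE; limma adjusted p = 0.00698), the largest value of the 36 genes in this comparison. Wars1, the tryptophanyl-tRNA synthetase of the cytosol (1388574_at), had 11.07 and 10.85 log2 in phenylephrine cells, 11.02 and 11.01 in stretched cells and 10.21 and 10.15 in control cells. It was 1.72-fold higher (0.78 ± 0.12; adjusted p = 0.0144), again with no overlap of the arrays. Yars1, the cytosolic tyrosyl-tRNA synthetase (1372009_at), had 11.29 and 11.08 log2 in phenylephrine cells and 10.63 and 10.50 in control cells, and was 1.54-fold higher (0.62 ± 0.12; adjusted p = 0.0382).

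Eprs1 encodes a fused enzyme of the multisynthetase complex that charges the tRNAs of both glutamate and proline. Its probe set 1373418_at had 11.69 and 11.53 log2 in phenylephrine cells and 11.03 and 10.98 in control cells, and it was 1.52-fold higher (0.60 ± 0.12; limma adjusted p = 0.0345). Cars2, the mitochondrial cysteinyl-tRNA synthetase (1383134_at), had 8.46 and 8.54 log2 in phenylephrine cells, 8.79 and 8.72 in stretched cells and 8.96 and 8.87 in control cells. Both phenylephrine arrays lay lowest, and the gene was 1.33-fold lower with phenylephrine (-0.41 ± 0.08; adjusted p = 0.0318). Its cytosolic counterpart Cars1 (1374034_at) had 10.52 and 10.32 log2 in phenylephrine cells and 9.94 and 10.03 in control cells, a change of 0.44 ± 0.11 that did not pass (adjusted p = 0.0923). Of its 3 dimmer probe sets, 1376754_at (0.47 ± 0.09; adjusted p = 0.032) and 1391572_at (0.51 ± 0.09; adjusted p = 0.0218) did pass.

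Several other cytosolic genes had values of like size that did not pass. Sars1 for serine had 0.62 ± 0.14 (limma adjusted p = 0.0647), Iars1 for isoleucine 0.61 ± 0.15 (0.0816), Nars1 for asparagine 0.56 ± 0.15 (0.0931) and Mars1 for methionine 0.52 ± 0.12 (0.072), each with both phenylephrine arrays above both control arrays. At an unadjusted p under 0.05, 14 of the 23 cytosolic and scaffold genes were higher and 1 was lower, where 6.98% of all probe sets were higher and 9.58% lower. The lower one was Qars1, the glutaminyl-tRNA synthetase of the complex (1371930_at), with 11.76 and 11.55 log2 in phenylephrine cells, 11.85 and 11.89 in stretched cells and 12.02 and 11.96 in control cells. All stimulated arrays lay below control, but its change with phenylephrine, -0.33 ± 0.12, did not pass (adjusted p = 0.209).

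The plot of levels by array shows the shift on each stimulated array. The median of the 23 cytosolic and scaffold genes, each relative to its own control mean, was 0.46 and 0.24 log2 on the phenylephrine arrays and 0.46 and 0.43 on the stretch arrays, against 0.05 and -0.05 on the control arrays. The median of the 13 mitochondrial genes was -0.02 and -0.09 on the phenylephrine arrays and 0.02 and 0.01 on the stretch arrays, against 0.04 and -0.04 on the control arrays. Phenylephrine replicate 2 stood lowest of the 4 stimulated arrays in both sets. Most of the 36 genes were dimmer on replicate 2 than on replicate 1 of their group, 32 for phenylephrine, 29 for stretch and 30 for control. Bright probe sets in general also had a lower median on replicate 2 of each group. It was 10.80 against 11.05 log2 for phenylephrine, 10.92 against 11.02 for stretch and 10.88 against 10.99 for control. The lower signal on replicate 2 was thus not shown to be particular to these genes.

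**Figure D1:**
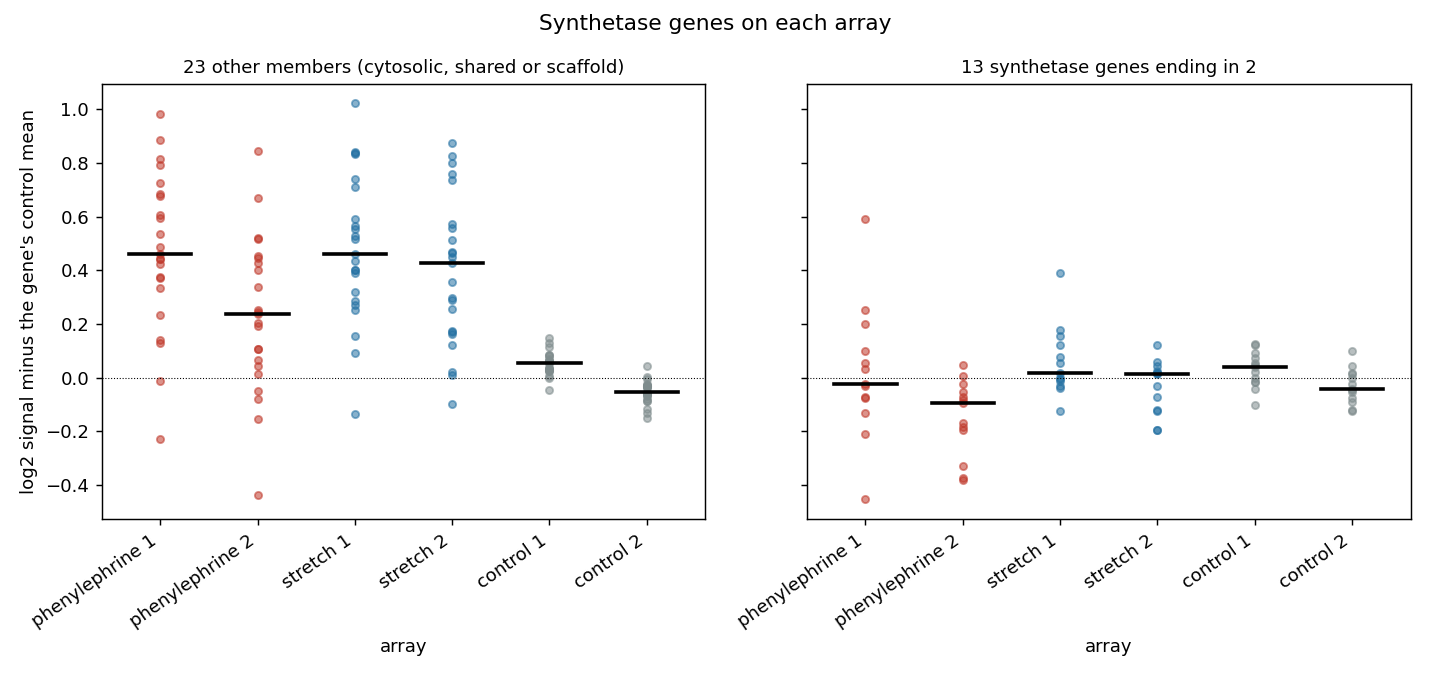
Log2 signal of each gene minus its mean on the 2 control arrays (vertical axis) on each of the 6 arrays (horizontal axis), for the 23 cytosolic and scaffold genes and the 13 synthetase genes ending in 2 in separate panels. Points are genes and bars medians, which on the stimulated arrays lie between 0.24 and 0.46 for the first set and between -0.09 and 0.02 for the second.

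Stretch against control shows the same genes under the mechanical stimulus. Gars1 and Wars1 rose and 0 of 36 genes fell in limma, where 0.345% of all probe sets changed, 0.306% higher and 0.0387% lower. Gars1 was 1.74-fold higher (0.80 ± 0.11 log2, SE; adjusted p = 0.0424) and Wars1 1.78-fold higher (0.83 ± 0.12; adjusted p = 0.0422). At an unadjusted p under 0.05, 14 of 36 were higher and 0 lower, against 3.6% and 1.94% of all probe sets, and all 14 were cytosolic or scaffold genes. A change above 0 was seen for 28 of 36, against 52.8% of all probe sets.

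The largest value with stretch belonged to a gene just short of the threshold. Sars1, which charges the tRNA of serine and also that of selenocysteine (1375441_at), had 12.18 and 12.04 log2 in stretched cells, 11.95 and 11.61 in phenylephrine cells and 11.19 and 11.13 in control cells. Both stretch arrays lay above all others, with a change of 0.95 ± 0.14 against control (limma adjusted p = 0.0519). Yars1 had 11.41 and 11.30 log2 in stretched cells and 10.63 and 10.50 in control cells (0.79 ± 0.12; adjusted p = 0.0614). Eprs1 had 11.72 and 11.81 log2 in stretched cells and 11.03 and 10.98 in control cells (0.76 ± 0.12; adjusted p = 0.0586), while its dim probe set 1382040_at passed with stretch (0.40 ± 0.06; adjusted p = 0.045) and with phenylephrine (0.28 ± 0.06; adjusted p = 0.0446). Nars1 had 0.66 ± 0.15, Aars1 for alanine 0.52 ± 0.12, Mars1 0.52 ± 0.12, Iars1 0.52 ± 0.15, Tars1 for threonine 0.49 ± 0.12 and Cars1 0.41 ± 0.11, none past the threshold. With phenylephrine Aars1 had 0.34 ± 0.12 and Tars1 0.31 ± 0.12.

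Counted by overlap, 21 of the 23 cytosolic and scaffold genes were higher on both stretch arrays than on both control arrays, 1 was lower (Qars1) and 1 overlapped (Tars3, a second threonyl-tRNA synthetase), while 19.4% of all probe sets were higher and 16.5% lower in this way. With phenylephrine 16 of 23 were higher, 2 lower (Qars1 and Farsa) and 5 overlapped, while 21.5% of all probe sets were higher and 22.1% lower. Of the 13 mitochondrial genes 2 were higher and 3 lower with stretch, and 0 higher and 4 lower with phenylephrine.

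**Figure D2:**
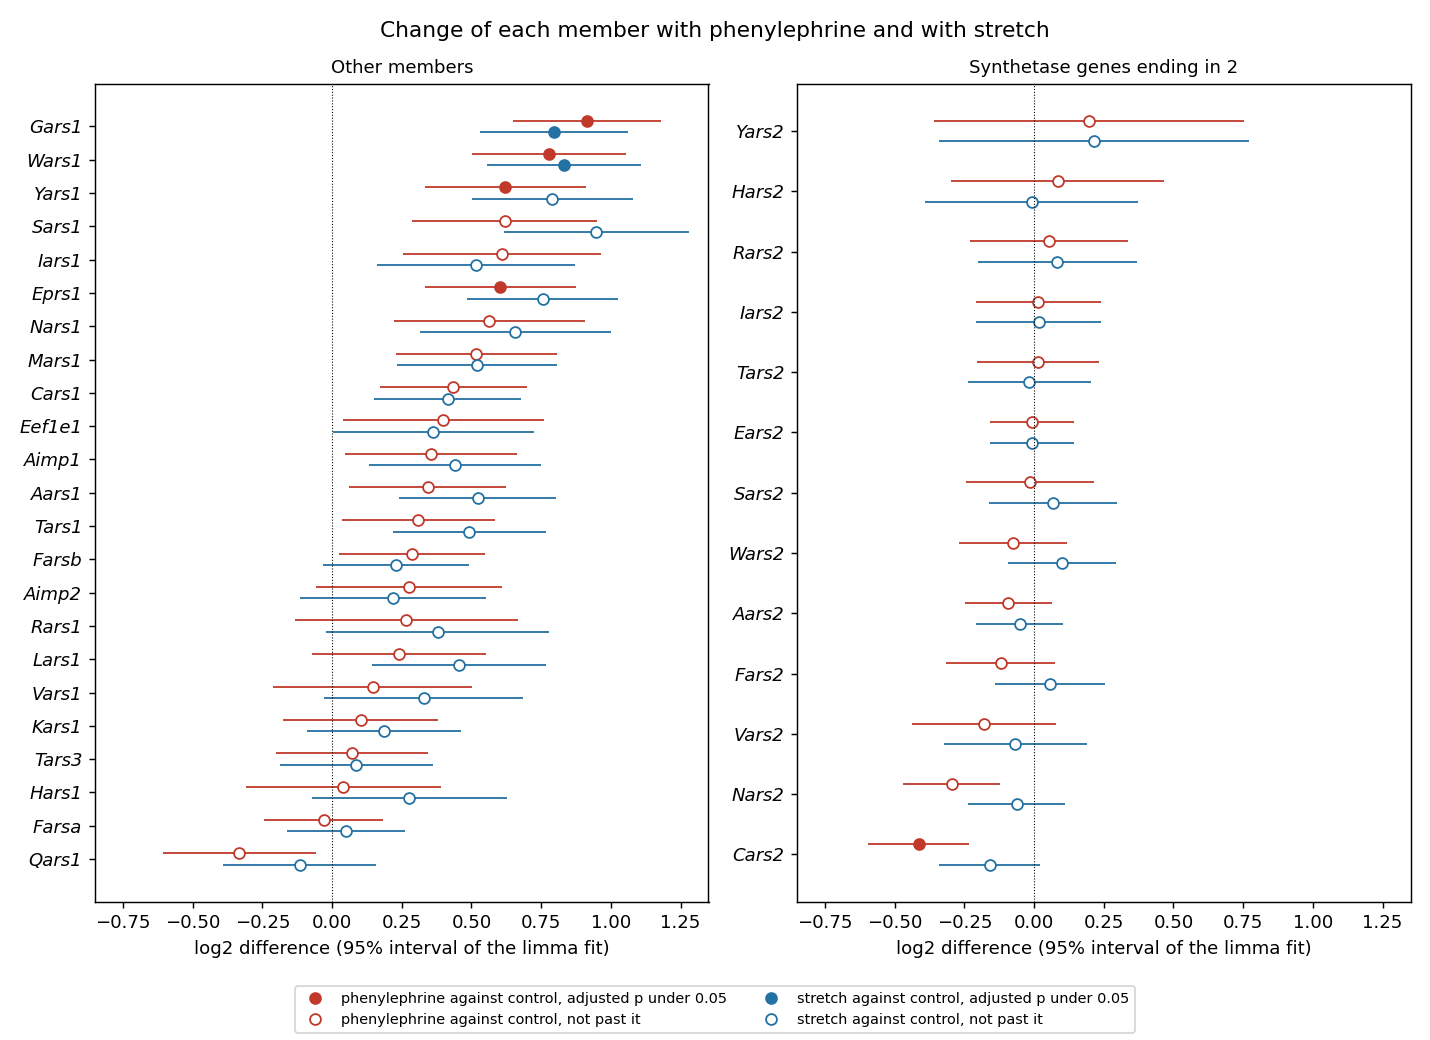
Log2 difference from control (horizontal axis) of each gene (rows) with phenylephrine (red) and with stretch (blue), with the 95% interval of the limma fit; filled points have an adjusted p under 0.05. The largest values are those of Gars1 with phenylephrine (0.91) and Sars1 with stretch (0.95).

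The genes ending in 2 and the rest had different medians in both comparisons with control. With phenylephrine the median change was -0.01 log2 over the 13 mitochondrial genes and 0.34 over the other 23, beside 0.01 over all probe sets. With stretch it was -0.01 over the 13 and 0.44 over the 23, beside 0.01. No test was made over the lists. With stretch 0 of the 13 mitochondrial genes passed in limma, with 0 higher and 0 lower at an unadjusted p under 0.05. Of all probe sets 0.345% passed with stretch, and 3.6% were higher and 1.94% lower at the unadjusted p, so these counts are near the background. With phenylephrine 0 of the 13 were higher and 2 lower at the unadjusted p, against 6.98% and 9.58% of all probe sets.

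Within the mitochondrial set most values were within the spread of the arrays. Nars2 for asparagine (1381448_at) came next to Cars2, with 7.62 and 7.46 log2 in phenylephrine cells, 7.83 and 7.71 in stretched cells and 7.82 and 7.85 in control cells, where the phenylephrine arrays lay lowest (-0.30 ± 0.07; limma adjusted p = 0.0829). Yars2 for tyrosine (1393033_at) had the highest change of the set and the largest SE, 0.20 ± 0.24 with phenylephrine and 0.22 ± 0.24 with stretch. Its levels were 9.57 and 8.78 log2 in phenylephrine cells, 9.36 and 9.02 in stretched cells and 9.10 and 8.85 in control cells, and the groups overlapped. Vars2 had -0.18 ± 0.11 with phenylephrine and -0.07 ± 0.11 with stretch, Fars2 -0.12 ± 0.08 and 0.06 ± 0.08, Wars2 -0.08 ± 0.08 and 0.10 ± 0.08, and Aars2 -0.09 ± 0.07 and -0.05 ± 0.07. The other 6, Ears2, Hars2, Iars2, Rars2, Sars2 and Tars2, had changes between -0.01 and 0.08 with phenylephrine and between -0.02 and 0.08 with stretch. Cars2 had -0.16 ± 0.08 with stretch.

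For the same amino acid the signed change of the cytosolic gene was the higher one in 12 of 13 pairs with phenylephrine and in 12 of 13 with stretch. The exception with phenylephrine was histidine, with 0.04 ± 0.15 for Hars1 and 0.08 ± 0.16 for Hars2, neighbours whose promoters overlap head to head in RefSeq. The exception with stretch was phenylalanine, with 0.05 ± 0.09 for Farsa and 0.06 ± 0.08 for Fars2. The pairs use the brightest probe sets, with Farsa for phenylalanine, and other choices move them. Hars1 probe set 1395533_at had 0.50 ± 0.24 with phenylephrine, and Farsb had 0.23 ± 0.11 with stretch. Going the other way, Eprs1 probe set 1382648_at had -0.011 with stretch, against -0.007 for Ears2. Taken without sign, Fars2 (-0.12) and Vars2 (-0.18) also changed more with phenylephrine than Farsa (-0.03) and Vars1 (0.15). The widest gaps with phenylephrine were those of asparagine (0.56 for Nars1, -0.30 for Nars2), tryptophan (0.78 for Wars1, -0.08 for Wars2) and cysteine (0.44 for Cars1, -0.41 for Cars2). With stretch the widest was that of serine (0.95 for Sars1, 0.07 for Sars2).

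**Figure D3:**
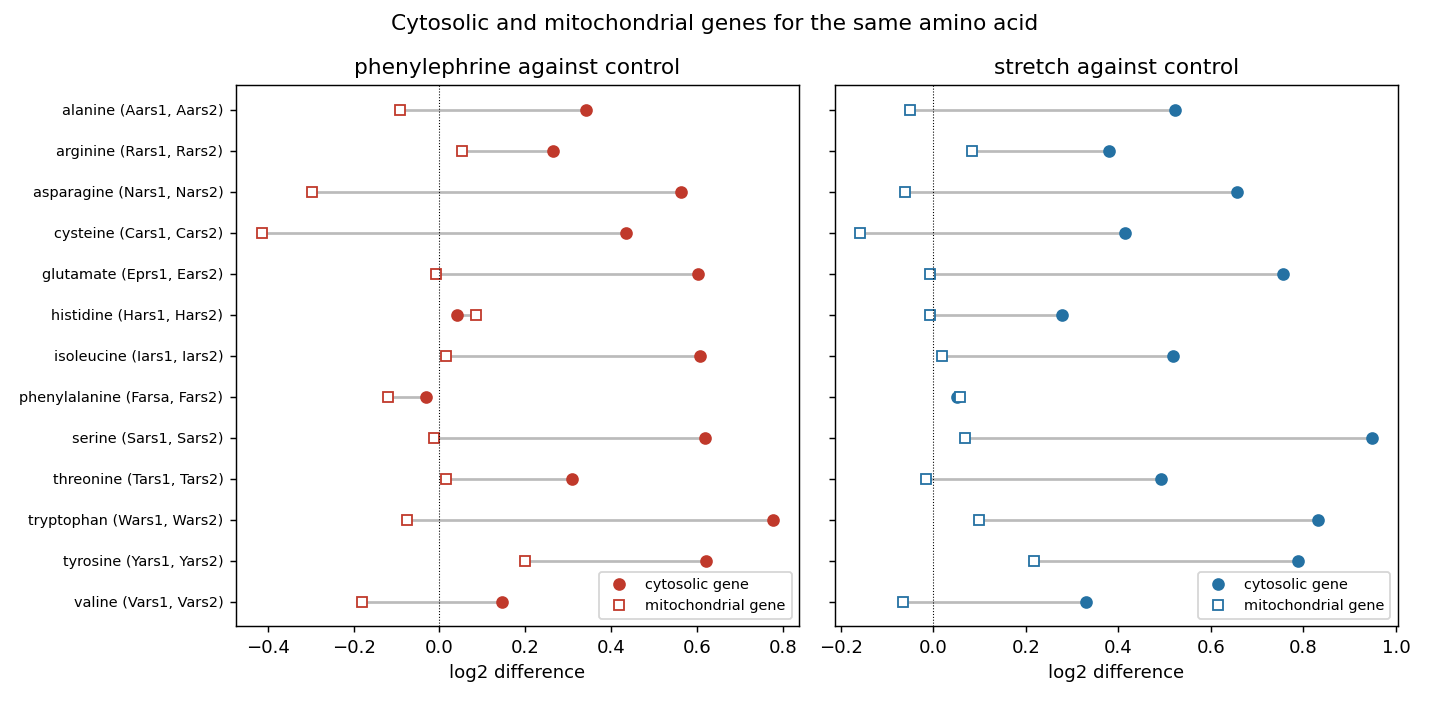
Log2 difference from control (horizontal axis) with phenylephrine and with stretch in separate panels, for 13 amino acids with a cytosolic gene (filled circle) and a mitochondrial gene (open square). The circle lies right of the square in 12 of 13 rows in each panel; Eprs1 stands for glutamate and Farsa for phenylalanine.

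By role, the 10 measured genes of the multisynthetase complex and the 13 cytosolic synthetases outside it had like medians, 0.32 and 0.34 log2 with phenylephrine and 0.41 and 0.49 with stretch. The scaffold genes did not pass. Aimp1, whose product also gives rise to a secreted cytokine, had 0.36 ± 0.13 with phenylephrine and 0.44 ± 0.13 with stretch, Aimp2 0.28 ± 0.14 and 0.22 ± 0.14, and Eef1e1 0.40 ± 0.16 and 0.36 ± 0.16. RefSeq lists pseudogenes of all 3, so their probe sets may read copies. Of the enzymes in the complex, Rars1 for arginine had 0.27 ± 0.17 and 0.38 ± 0.17, Lars1 for leucine 0.24 ± 0.13 and 0.45 ± 0.13, and Kars1 0.10 ± 0.12 and 0.19 ± 0.12 in the same order of stimuli.

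The subunits of cytosolic phenylalanyl-tRNA synthetase differed in their values. Farsb, the β subunit (1371453_at), had 11.26 and 11.17 log2 in phenylephrine cells, 11.21 and 11.10 in stretched cells and 10.96 and 10.90 in control cells, with every stimulated array above control (0.29 ± 0.11 and 0.23 ± 0.11; limma adjusted p = 0.26 for phenylephrine). Farsa, the α subunit (1374255_at), had 9.57 and 9.53 log2 in phenylephrine cells, 9.67 and 9.59 in stretched cells and 9.59 and 9.58 in control cells, all within a narrow range (-0.03 ± 0.09 and 0.05 ± 0.09). The difference between the subunits was not tested. Hars1 had 0.28 ± 0.15 with stretch, Vars1 for valine 0.15 ± 0.15 with phenylephrine and 0.33 ± 0.15 with stretch, and Tars3 0.07 ± 0.12 and 0.09 ± 0.12.

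The cytosolic genes with the TGATGNAA letters are set here beside the cytosolic and scaffold genes without them. With phenylephrine the 7 ran from 0.31 to 0.62 log2 (median 0.52), and the 14 without the letters from -0.33 to 0.78 (median 0.26). With stretch the 7 ran from 0.41 to 0.79 (median 0.52), and the 14 from -0.12 to 0.95 (median 0.30). All 7 were above control with no overlap of arrays for either stimulus, as were 8 of the 14 with phenylephrine and 12 of the 14 with stretch. Wars1, Sars1 and Eprs1, among the largest values, had no match in the window, and a window for Gars1 was not used here. The 7 had means of 10.27 to 11.87 log2 over the 6 arrays. The 14 included the 3 scaffold genes and the dimmer Farsa, Hars1, Tars3 and Vars1, with means of 9.59 to 9.94. Signal level and number of genes thus differed along with the letters, and no test was made on this division.

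Signal level ran with the division into sets. The mean over 6 arrays was 7.72 to 9.78 log2 for the 13 mitochondrial genes and 9.59 to 11.87 for the other 23, and dim probe sets can give compressed folds. At a limit of 10 log2, chosen after the values were seen, 4 of 19 members at or above it rose with phenylephrine and 2 with stretch, against 3.88% and 0.629% of all probe sets at that level. Their arrays lay above control without overlap for 16 of 19 with phenylephrine and 18 of 19 with stretch, against 24.8% and 23.3%. Of the 17 members below the limit 0 rose in limma with either stimulus (0 higher at an unadjusted p under 0.05), against 1.26% and 0.235% of dim probe sets. Of these 17, 1 fell with phenylephrine and 0 with stretch, against 1.49% and 0.0353%, and 0 and 5 lay above control without overlap, against 20.8% and 18.6%. The 4 cytosolic genes below the limit, Farsa, Hars1, Tars3 and Vars1, ran from -0.03 to 0.15 with phenylephrine and from 0.05 to 0.33 with stretch.

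Some dim probe sets of cytosolic genes also moved. Of the 19 further probe sets of 15 members, 17 lay below 10 log2, and 17 of the 19 had the sign of the brightest with phenylephrine and 15 with stretch. Their absolute change was smaller than that of the brightest for 12 of the 19 with phenylephrine and for 16 with stretch. Gars1 probe set 1395730_at, at a mean of 9.38 log2, had 0.74 ± 0.14 with phenylephrine (limma adjusted p = 0.0348) and 0.41 ± 0.14 with stretch. Wars1 probe set 1395124_at, at 9.36, had 0.43 ± 0.10 and 0.32 ± 0.10. Hars1 probe set 1395533_at had 0.50 ± 0.24 with phenylephrine, where the brighter one had 0.04 ± 0.15. Other dim probe sets lay near 0 with phenylephrine, among them Cars1 1394970_at (0.04 ± 0.06) and Farsb 1392339_at (-0.04 ± 0.08). So did Kars1 1398106_at (-0.07 ± 0.06) and Vars1 1385661_at (0.03 ± 0.07). The part of signal level in the difference between the sets was not tested.

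**Figure D4:**
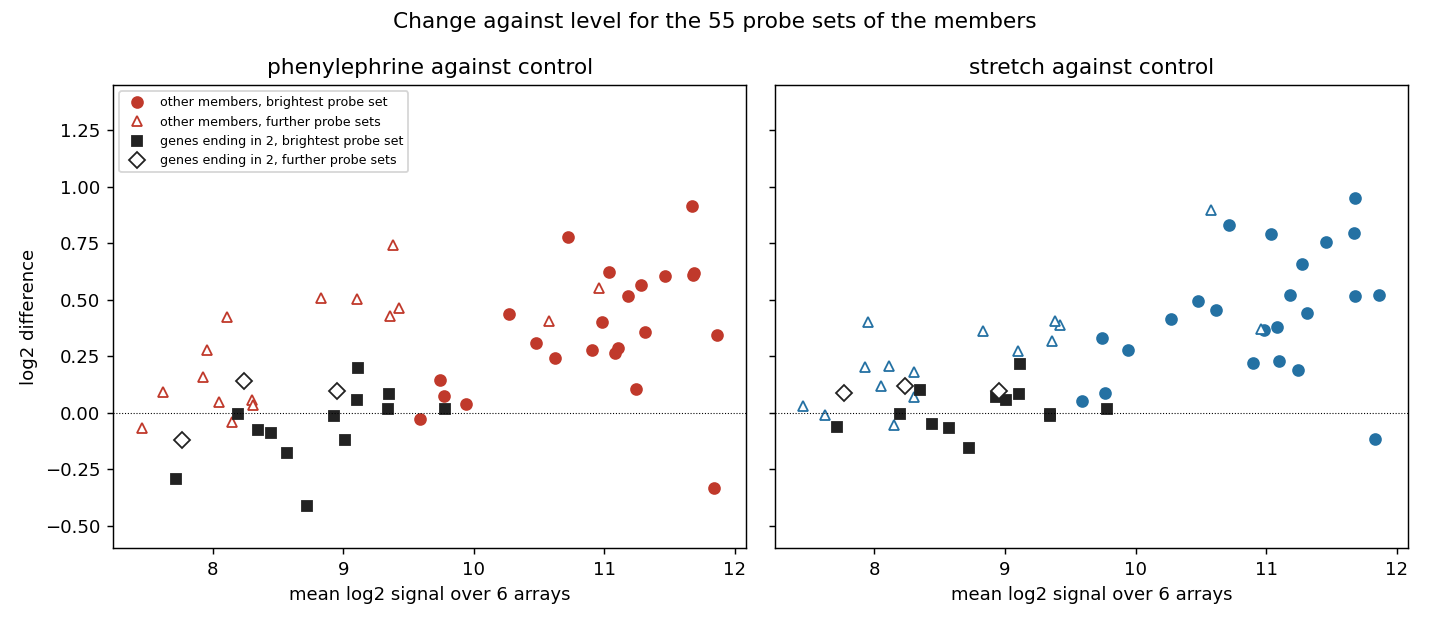
Log2 difference from control (vertical axis) against the mean log2 signal over 6 arrays (horizontal axis) for all 55 probe sets of the members, with phenylephrine and with stretch in separate panels. The genes ending in 2 (black squares, open diamonds for further probe sets) lie below 10 log2 and mostly near 0, and below that level further probe sets of the other genes (open triangles) reach 0.74 with phenylephrine and 0.41 with stretch.

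Stretch against phenylephrine sets the stimuli side by side. In limma 0 of 36 genes passed, where 1.33% of all probe sets changed, 0.718% higher and 0.612% lower. At an unadjusted p under 0.05 there were 2 higher (Cars2 and Nars2) and 0 lower, against 7.84% and 4.63%. The arrays of 11 genes were higher and of 1 (Gars1) lower without overlap, against 21.6% and 17.2%, and 28 of 36 had a change above 0, against 51.6%. Cars2 had 0.26 ± 0.08 (95% interval 0.0749 to 0.437; adjusted p = 0.217) and Nars2 0.23 ± 0.07 (0.0603 to 0.407; 0.239). Sars1 had the largest value, 0.33 ± 0.14 (-0.00285 to 0.661; 0.406). Gars1 had -0.12 ± 0.11 (-0.382 to 0.147) and Wars1 0.05 ± 0.12 (-0.222 to 0.328), intervals that do not show equal responses. The comparisons with control share the control arrays.

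Genes of the amino acid response held larger single changes than the synthetases. Of 37 measured genes of the ATF4 response outside the synthetases, 14 rose and 0 fell with phenylephrine, with a median of 0.38 log2, and 13 rose and 0 fell with stretch, with a median of 0.54, where 1.73% and 0.306% of all probe sets rose. Asns, which makes asparagine, had 11.41 and 11.11 log2 in phenylephrine cells, 11.05 and 10.88 in stretched cells and 9.46 and 9.21 in control cells. It rose by 1.93 ± 0.15 with phenylephrine (limma adjusted p = 0.00147) and by 1.63 ± 0.15 with stretch (0.00555). Mthfd2, a mitochondrial folate enzyme, rose by 1.70 ± 0.11 with phenylephrine (0.00103) and by 1.20 ± 0.11 with stretch (0.0048). Phgdh, the first enzyme of serine synthesis (1.34 ± 0.12; adjusted p = 0.00224), and the transcription factor gene Atf5 (1.13 ± 0.13; 0.00497) rose with phenylephrine.

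With stretch the cytokine gene Gdf15 (2.83 ± 0.10; limma adjusted p = 4.31e-05) and the pseudokinase gene Trib3 (1.63 ± 0.09; 0.00074) led the list, and with phenylephrine they had 0.24 ± 0.10 (0.257) and 0.67 ± 0.09 (0.0104). Atf4 itself had 0.47 ± 0.11 with phenylephrine (adjusted p = 0.0576) and 0.48 ± 0.11 with stretch (0.216).

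**Figure D5:**
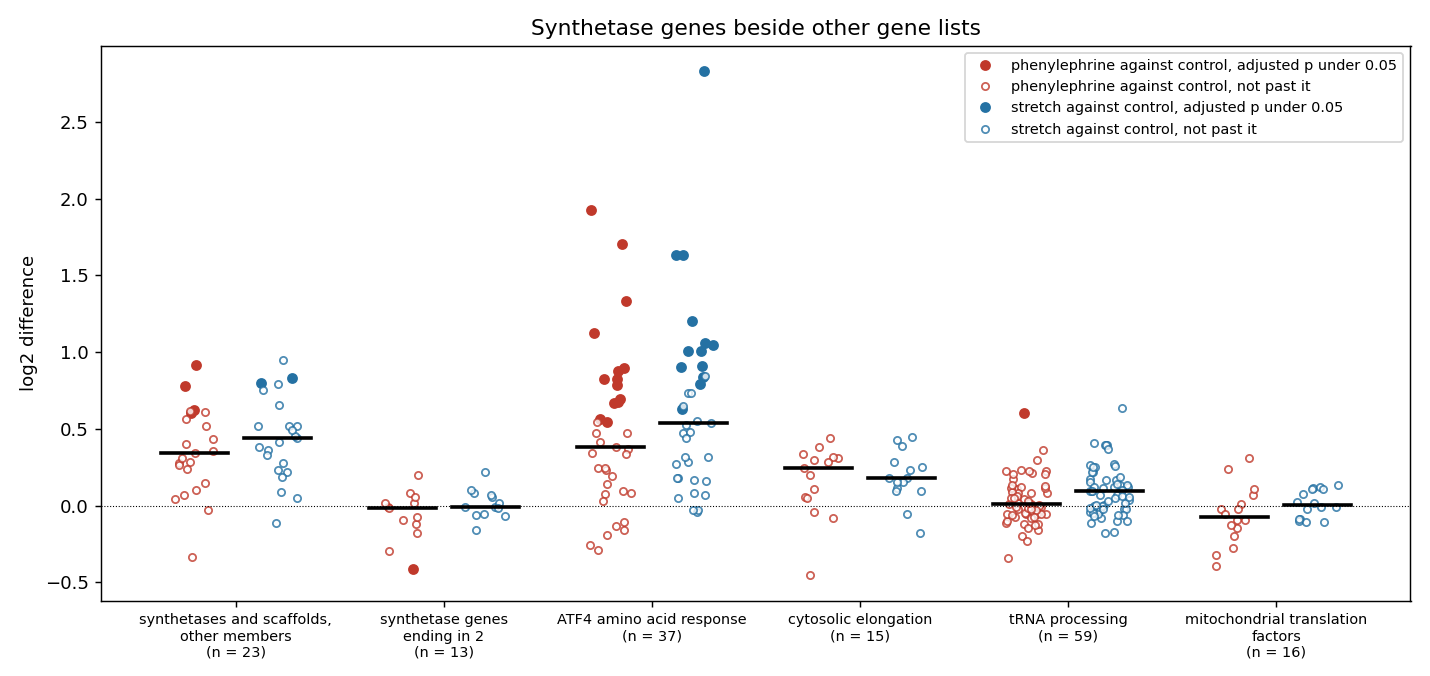
Log2 difference from control (vertical axis) of each gene with phenylephrine (red) and with stretch (blue) for the 23 cytosolic and scaffold genes, the 13 synthetase genes ending in 2 and 4 other gene lists (horizontal axis); bars are medians and filled points have an adjusted p under 0.05. The ATF4 list reaches 2.83, and the medians of the 2 mitochondrial lists lie between -0.08 and 0.00.

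In the other lists of tRNA and protein synthesis the calls are read against all probe sets, of which 1.73% rose and 1.87% fell with phenylephrine and 0.306% rose with stretch, and of which at an unadjusted p under 0.05 6.98% were higher and 9.58% lower with phenylephrine and 3.6% higher and 1.94% lower with stretch. Of 59 genes that process, modify or export tRNA, 1 rose and 0 fell with phenylephrine (median 0.01), a share at the background, and 0 passed in limma with stretch (median 0.09; 11 higher and 0 lower at an unadjusted p under 0.05). The one that rose was Aarsd1, which clears mischarged alanine tRNA, with 0.60 ± 0.11 (adjusted p = 0.0256), and it had 0.10 ± 0.11 with stretch. Of 15 cytosolic elongation and termination genes 0 passed in limma with either stimulus (medians 0.24 and 0.18), with 6 higher and 1 lower for phenylephrine and 5 higher and 0 lower for stretch at an unadjusted p under 0.05. Of 16 mitochondrial translation genes 0 passed in limma with either (medians -0.08 and 0.00), with 0 higher and 3 lower for phenylephrine and 0 higher and 0 lower for stretch at an unadjusted p under 0.05. Of 10 genes around the initiation factor eIF2, whose phosphorylation raises ATF4 translation, its subunit gene Eif2s2 rose with phenylephrine (0.67 ± 0.13; adjusted p = 0.035), and 0 passed in limma with stretch (1 higher and 0 lower at an unadjusted p under 0.05).

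Some cell markers and array controls moved with the stimuli as well. Of 10 fibroblast markers 4 fell with phenylephrine (Dpt, Col3a1, Postn and Pdgfra), where 1.87% of all probe sets fell, and 0 passed in limma with stretch (0 higher and 4 lower at an unadjusted p under 0.05). Their array medians were 11.47 to 11.69 log2 for phenylephrine and 11.73 to 11.87 for stretch, against 12.14 to 12.18 for control. In bulk RNA, fewer cells of a type and less RNA per cell cannot be told apart. Of 7 smooth muscle and pericyte markers 3 rose with phenylephrine (Acta2, Cnn1 and Cspg4) and 1 with stretch (Cnn1), where 1.73% and 0.306% of all probe sets rose. With phenylephrine the arrays of 3 others of the 7, Myh11, Rgs5 and Pdgfrb, lay below control without overlap and did not pass. With phenylephrine 1 of 7 endothelial markers (Kdr) and 1 of 8 macrophage and leukocyte markers (Cd68) fell. Of 3 red blood cell markers 0 passed in limma with either stimulus (0 at an unadjusted p under 0.05). The 11 cardiomyocyte markers were bright on every array (medians 14.41 to 14.76), and Nppa rose with phenylephrine. Phenylephrine replicate 2 had the lowest spike-in median, 9.31 against 10.13 to 10.37 on the other 5 arrays, while phenylephrine replicate 1 lay within the range of the rest. The 5S rRNA control was 10.59 and 9.37 log2 on the phenylephrine arrays and 10.68 and 11.13 on the stretch arrays, against 11.36 and 11.77 on the control arrays, with no overlap between stimulated and control arrays. The 3' minus 5' difference of the GAPDH control was 0.248 and 0.304 log2 for phenylephrine and 0.356 and 0.479 for stretch, against 0.360 and 0.587 for control, lowest on the phenylephrine arrays. That of actin was also lowest there, 1.04 and 0.97 against 1.10 to 1.41 on the other arrays. The hexokinase control went the other way, with 1.65 and 1.88 for phenylephrine against 1.29 to 1.49 on the other arrays. The part of these in the synthetase values was not tested.

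Single arrays decided the number of calls, and not for the members alone. The share of all probe sets called also fell without either control array, and for stretch without either stretch array. Without control replicate 1, and likewise without control replicate 2, no call of a member held in either comparison with control. The same was true for stretch without either stretch array. Each call of a member was lost under some omission, and that of Cars2 under every one. Over the 6 omissions the change with phenylephrine ran from 0.84 to 0.98 log2 for Gars1 and from 0.67 to 0.89 for Wars1. It ran from 0.52 to 0.73 for Yars1, from 0.52 to 0.69 for Eprs1 and from -0.46 to -0.37 for Cars2. With stretch it ran from 0.76 to 0.83 for Gars1 and from 0.80 to 0.86 for Wars1. Quantile normalization gave 15 calls for phenylephrine, 13 higher and 2 lower (Cars2 and Qars1), and 11 for stretch, all higher, while 8.99% and 1.24% of all probe sets were called under it. The median of the cytosolic and scaffold genes stayed between 0.24 and 0.46 with phenylephrine and between 0.43 and 0.49 with stretch when an array was left out.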

How the data were processed

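Expression was measured on 6 single-channel Affymetrix arrays, 2 each of phenylephrine, stretch and control cells. The authors deposited 1 value per probe set, taken as log2 from its range. How probe sets were summarized and normalized is not given in the sources used here. Array medians over all probe sets differed by at most 0.0381, so values were used as deposited. The arrays were less alike among bright probe sets. Their median was 11.05 and 10.80 log2 for phenylephrine, 11.02 and 10.92 for stretch and 10.99 and 10.88 for control. The interquartile range over all probe sets ran from 1.70 log2 on phenylephrine replicate 2 to 1.92 on stretch replicate 1. Of 31099 probe sets 57 array controls were left out and 31042 tested, of which 20826 had 1 gene symbol in the platform annotation. All 36 members matched RefSeq (GRCr8) by Entrez identifier.

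Group means were estimated from the 6 arrays together (R 4.3.3, limma 3.58.1, lmFit and eBayes with trend), with 3 residual and 4.80 prior degrees of freedom. P-values were two-sided and adjusted by Benjamini-Hochberg over all probe sets tested, at 0.05. With 2 arrays a group an exact permutation test goes no lower than p = 0.333, so none was used. The fit was tested on simulated data.

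The members, gene lists and groupings by role were chosen with earlier results of these data known. Every member is named. Of other lists up to 4 called genes with the largest change per comparison are named; Atf4, the marker genes and values of these genes in the other comparison were added after values were seen. A planned comparison of protein sequences was not made. The number of arrays limits the precision. Alternatives were no trend, fewer arrays, quantile normalization, a filter on level, a replicate block and other choices of probe set.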

Additional observations from a re-analysis of the deposited data

How the results depend on the processing

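The number of the 36 genes called depended on the setting. The share of all probe sets called in the same fit is given in brackets. Against 5 calls for phenylephrine (3.6%), there were 8 with no mean-variance trend (4.14%) and 2 with only the 4 arrays compared (2.13%). Quantile normalization gave 15 (8.99%) and a replicate block 18 (15 higher, 3 lower; 17.3%). With only probe sets at or above the median level there were 7 (7.67%). Against 2 calls for stretch (0.345%) there were 4 with no trend (0.338%) and 5 with only the 4 arrays compared (0.361%). Quantile normalization gave 11 (1.24%), the replicate block 15 (3.31%) and only probe sets at or above the median level 5 (0.67%). Between stretch and phenylephrine there were 0 calls (1.33%), 3 with the replicate block (Cars2, Nars2 and Sars1, all higher with stretch; 12%) and 0 under the other settings. Leaving out 1 array gave 0 to 6 calls for phenylephrine, 0 to 5 for stretch and 0 between the stimuli, in fits that assume the lone array of a group to vary like the others. The median of the genes ending in 2 then ran from -0.093 to -0.013 with phenylephrine, from -0.017 to 0.019 with stretch and from 0.016 to 0.176 between stretch and phenylephrine, and that of the other genes between stretch and phenylephrine from -0.020 to 0.188. Averaging all probe sets of a gene gave 5 calls for phenylephrine (4.32% of all averaged values) and 2 for stretch (0.45%), but not for the same genes. The calls of Eprs1 with phenylephrine and of Gars1 and Wars1 with stretch were lost, and other members passed in their place. With Aimp2 among the genes ending in 2, their medians were -0.010 with phenylephrine and 0.005 with stretch. No called gene changed sign under these settings. The cause of the differences was not tested. Arrays of equal replicate number deviated together (r = 0.487, 0.673 and 0.534 across probe sets for phenylephrine with control, stretch with control and stretch with phenylephrine), but there were 2 numbers and no label says what they share. Background was not measured apart from the signal here, so what signal over background limits was not tested.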
